A study of Mus musculus with 43 samples.

Results

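The NRF2 antioxidant response genes are a set of 10 mouse genes centred on the transcription factor NRF2. They were chosen by symbol among the 21938 genes of the count table, and 10 of 10 were found and passed the filter on low counts. The set holds Nfe2l2, which encodes NRF2, its inhibitor Keap1, and the targets Gclc, Gclm, Txnrd1, Srxn1, Prdx1, Gpx2, Nqo1 and Hmox1. They were followed in 43 libraries of the inferior lung lobe of mice. The libraries comprise 17 from bleomycin mice on nintedanib, 16 from bleomycin mice on vehicle and 10 from control mice on vehicle. The labels call the bleomycin mice BLEO-IPF and the control mice CTRL. Bleomycin is a DNA-breaking antibiotic used to induce lung fibrosis in rodents, and nintedanib is an inhibitor of VEGF, FGF and PDGF receptor kinases used against human lung fibrosis. The labels name no genotype or strain for any group, and they give no dose, route, day, sex or age. They tie the vehicle of the bleomycin mice to nintedanib and do not name that of the control mice, so vehicle and bleomycin cannot be told apart in comparisons with control mice. Each library was taken as 1 mouse, so a p-value here reflects only how these samples vary.

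NRF2 is held low in unstressed cells by KEAP1, an adaptor that brings it to a ubiquitin ligase for destruction. Oxidants and electrophiles modify cysteines of KEAP1, NRF2 then builds up, pairs with a small MAF protein and binds antioxidant response elements upstream of its targets. The targets make and use glutathione, recycle thioredoxin and peroxiredoxin, detoxify quinones and break down haem, and in the lung the pathway is known for limiting oxidant injury of the epithelium. Much of this control acts on the NRF2 protein, which was not measured here, since the values are messenger RNA counts.

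Library totals were 13324549 to 18723538 counts in nintedanib mice, 13175246 to 19111457 in bleomycin vehicle mice and 13138281 to 17812995 in control mice. Lung identity was clear from the markers of alveolar type 2 cells, whose 6 genes summed to between 12562 and 43824 CPM (read counts divided by the TMM-adjusted size of each library) over all 43 libraries. All 6 markers of profibrotic macrophages rose in bleomycin vehicle mice, with sums of 1358 to 4395 CPM against 420 to 502 CPM in control mice. All 8 airway secretory markers fell, with sums of 5196 to 20504 CPM in bleomycin vehicle mice and 17339 to 31481 CPM in control mice. In bulk tissue, fewer cells of a type and less RNA per cell cannot be told apart, and the part of cell composition in the results was not tested. Adipoq, a fat cell gene, reached at least 1 CPM in 5 of 17 nintedanib libraries, 0 of 16 bleomycin vehicle libraries and 8 of 10 control libraries, so that counts were also taken without those libraries, which left 12, 16 and 2.

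The first question was which members differed between bleomycin and control lungs. Of the 10 members, 6 rose in bleomycin vehicle mice and 0 fell, by edgeR's quasi-likelihood test with a Benjamini-Hochberg adjusted p under 0.05 over all 14836 tested genes. Nfe2l2 itself rose, as did Gclc, Txnrd1, Srxn1, Prdx1 and Hmox1, by 1.34 to 2.57-fold. Keap1, Gclm, Gpx2 and Nqo1 were not called. The background is wide, since 57.9% of all tested genes were called in this comparison, 29.5% as higher and 28.3% as lower. The median log2 fold change was 0.46 over the 10 members and -0.0061 over all tested genes. For 5 of 10 members every bleomycin vehicle library lay above every control library, which held for 3.7% of all tested genes, while 1.84% were separated in the lower direction. All 6 called members were also called without the Adipoq libraries, within the largest number series of library names and by DESeq2.

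**Figure D1:**
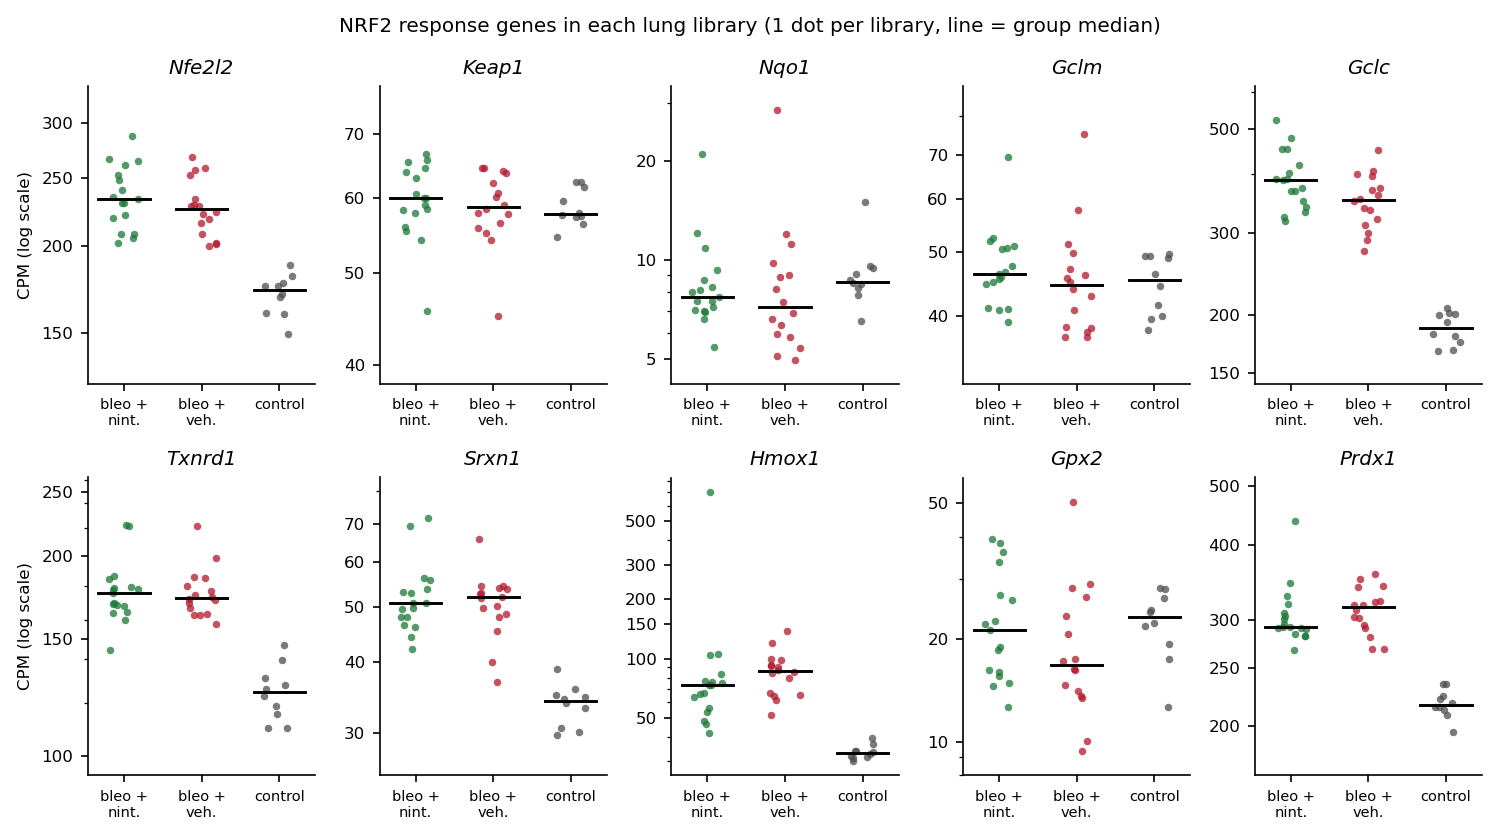
Level of each of the 10 genes in CPM (log axis) in 17 bleomycin nintedanib, 16 bleomycin vehicle and 10 control vehicle libraries, 1 dot per library, with a line at the group median. Control libraries form the lower cluster for Nfe2l2, Gclc, Txnrd1, Srxn1, Hmox1 and Prdx1 and share the range of the bleomycin groups for Keap1, Nqo1, Gclm and Gpx2, and 1 nintedanib library stands at 706 CPM of Hmox1.

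Nfe2l2 (chromosome 2, 75675513 to 75704641, GRCm38) had 200 CPM in the lowest, 226 CPM in the median and 268 CPM in the highest bleomycin vehicle mouse, and 149, 173 and 187 CPM in control mice. The groups did not overlap. Nfe2l2 rose by 0.42 ± 0.055 (SE) on the log2 scale (adjusted p = 2.4e-08). The small nuclear RNA gene Gm24996 overlaps Nfe2l2 on the same strand. Keap1 (chromosome 9, 21229730 to 21239361) had a mean of 58.7 ± 4.99 CPM (SD, n = 16) in bleomycin vehicle mice and 58.7 ± 2.68 CPM (n = 10) in control mice. The 95% interval of its log2 fold change ran from -0.10 to 0.10, the narrowest of the 4 members that were not called. A gene antisense to Keap1, Gm16754, overlaps it, and the strand setting of the counting is not given in the sources used here.

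Glutathione is made by glutamate-cysteine ligase, which joins a catalytic subunit encoded by Gclc to a modifier subunit encoded by Gclm that raises its activity. Gclc (chromosome 9, 77754535 to 77794485) had 275, 352 and 452 CPM in the lowest, median and highest bleomycin vehicle mouse and 168, 188 and 207 CPM in control mice. All 16 bleomycin vehicle mice lay above the highest control mouse. Gclc rose by 0.91 ± 0.076 on the log2 scale, a 1.88-fold difference (95% interval 1.69 to 2.09, adjusted p = 4.9e-13). Gclm (chromosome 3, 122245557 to 122270732) had 37.2, 44.5 and 75.3 CPM in the lowest, median and highest bleomycin vehicle mouse and 38.1, 45.4 and 49.6 CPM in control mice. The groups overlapped over the whole control range, and the log2 fold change was 0.04 ± 0.088 (adjusted p = 0.725). Gm17494 and the pseudogene Gm6061 overlap Gclm.

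The ratio of the pair was examined because of these values, that is, after they were seen. The log2 ratio of Gclc to Gclm CPM averaged 3.04 ± 0.23 (SD, n = 17) in nintedanib mice, 2.95 ± 0.25 (n = 16) in bleomycin vehicle mice and 2.07 ± 0.16 (n = 10) in control mice. Bleomycin vehicle mice exceeded control mice by 0.88 and nintedanib mice exceeded control mice by 0.97, each with a two-sided permutation p = 1e-05, the smallest that 100000 resamples can give (adjusted p = 1.5e-05 over 3 comparisons). The lowest bleomycin vehicle mouse had a ratio of 2.41 and the highest control mouse 2.40, so that the groups were separate but close at the edge. Between nintedanib and bleomycin vehicle mice the difference was 0.09 (permutation p = 0.285). Without the Adipoq libraries that difference was 0.22 (permutation p = 0.0114, adjusted p = 0.01965).

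**Figure D2:**
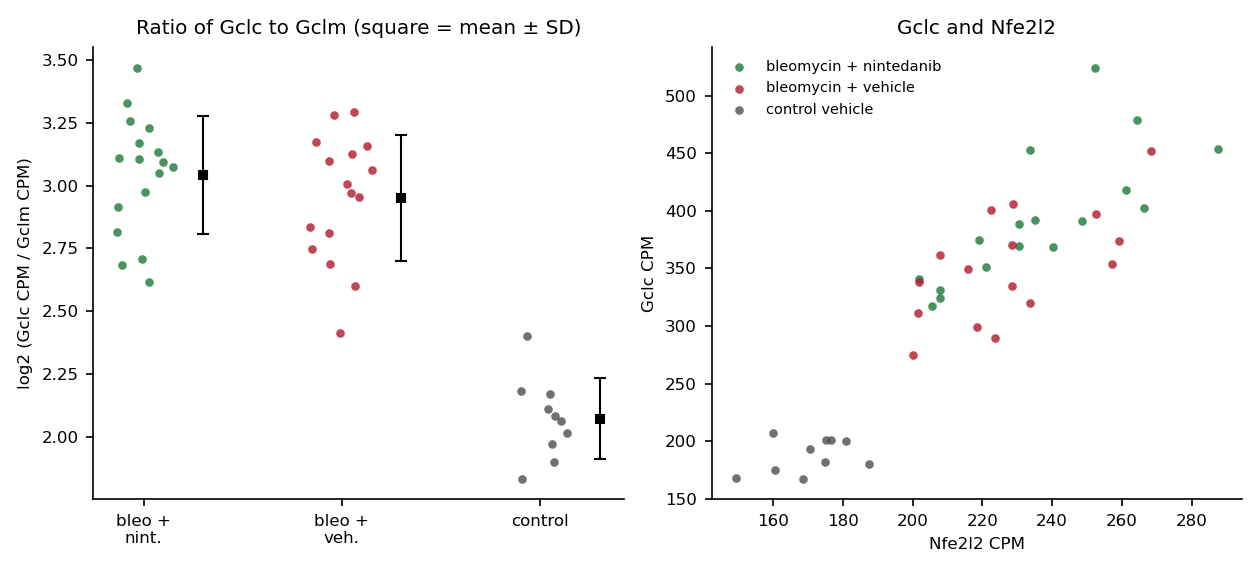
Left, log2 ratio of Gclc to Gclm CPM per library with the group mean and SD as a square with bars, in the order bleomycin nintedanib (3.04), bleomycin vehicle (2.95) and control vehicle (2.07). Right, Gclc against Nfe2l2 in CPM, 1 dot per library, where the 10 control libraries lie apart at the lower left and the 2 bleomycin groups share 1 rising cloud.

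All 3 members of the thioredoxin and peroxiredoxin branch rose. Txnrd1, the selenoprotein that reduces thioredoxin with NADPH, had 158, 173 and 222 CPM in the lowest, median and highest bleomycin vehicle mouse and 110, 125 and 147 CPM in control mice. Prdx1, a peroxiredoxin that removes hydrogen peroxide, had 268, 315 and 357 CPM in bleomycin vehicle mice and 195, 217 and 235 CPM in control mice. Neither gene overlapped between the groups. Srxn1, the sulfiredoxin that repairs overoxidised peroxiredoxins, had 36.8, 51.9 and 65.8 CPM in bleomycin vehicle mice and 29.7, 34.1 and 38.9 CPM in control mice, with 15 of 16 bleomycin vehicle mice above the highest control mouse. Log2 fold changes were 0.50 ± 0.057 for Txnrd1 (adjusted p = 1.4e-09), 0.51 ± 0.057 for Prdx1 (adjusted p = 5.1e-10) and 0.59 ± 0.074 for Srxn1 (adjusted p = 1e-08). Eid3 and the gene models Gm38560 and Gm47073 overlap Txnrd1 (chromosome 10, 82833951 to 82897712), so a share of its reads could be theirs. Prdx1 lies on chromosome 4 (116685544 to 116700822) and Srxn1 on chromosome 2 (152105516 to 152111376).

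Upstream sequence was read for the members that moved and those that did not, from the promoter table of RefSeq on GRCm38.p6, which matched 8 of 10 members, all but Gclc and Hmox1. An antioxidant response element was searched as TGACNNNGC or TGAGNNNGC on both strands in the 250 bases before each annotated start. It was found for Nfe2l2, Gclm, Srxn1, Prdx1 and 1 of 3 starts of Txnrd1, which makes 5 of 8 members, and not in these windows of Keap1, Nqo1 and Gpx2. Of all 32851 promoters of the same length, 23.01% held such a match, so a match is common. The stricter forms TGACTCAGC and TGAGTCAGC contain the AP-1 site (TGACTCA or TGAGTCA, in 4.46% of promoters) and occurred in 0.706% of promoters. Srxn1 held one that began 45 bases before its RefSeq start at 152105524. Prdx1 held one at 133 bases before its RefSeq start at 116685599. Both starts lie past the end of the stretch printed below. The upstream stretches of Srxn1 (chr2:152105274-152105515, plus strand), Prdx1 (chr4:116685349-116685543, plus strand) and Gclm (chr3:122245307-122245556, plus strand) are printed up to the first annotated transcript because the first pair rose and Gclm did not, although each holds a match. Capitals mark the matches.
Srxn1: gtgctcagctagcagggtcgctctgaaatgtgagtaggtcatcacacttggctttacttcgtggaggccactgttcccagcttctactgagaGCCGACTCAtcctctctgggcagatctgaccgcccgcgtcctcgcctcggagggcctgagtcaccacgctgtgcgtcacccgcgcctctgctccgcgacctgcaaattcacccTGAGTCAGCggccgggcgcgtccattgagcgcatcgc
Prdx1: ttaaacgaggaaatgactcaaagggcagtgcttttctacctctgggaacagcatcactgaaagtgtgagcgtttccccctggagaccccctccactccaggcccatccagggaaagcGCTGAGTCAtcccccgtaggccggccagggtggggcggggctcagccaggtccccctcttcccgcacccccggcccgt
Gclm: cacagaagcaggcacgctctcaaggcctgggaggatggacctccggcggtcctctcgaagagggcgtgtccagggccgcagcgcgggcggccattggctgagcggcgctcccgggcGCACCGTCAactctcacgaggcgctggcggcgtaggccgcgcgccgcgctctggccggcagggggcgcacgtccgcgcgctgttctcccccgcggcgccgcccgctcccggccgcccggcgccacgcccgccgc
The capitals of Gclm and of the first Srxn1 match fit the general form only, and a match is a description of letters, not a bound site.

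Hmox1 (chromosome 8, 75093621 to 75100589) encodes haem oxygenase 1, which opens haem into biliverdin, carbon monoxide and iron, and it had the largest fold change of the 10. Bleomycin vehicle mice had 51.5, 86.3 and 138 CPM (lowest, median and highest), and control mice had 30.1, 33.1 and 39.4 CPM. The groups did not overlap, and the difference was 2.57-fold (95% interval 1.62 to 4.07, log2 fold change 1.36 ± 0.33, adjusted p = 0.0005). Its standard error was the widest of the 6 called members, and the fit takes 1 spread per gene from all 3 groups, the nintedanib mice described below included. Markers of profibrotic macrophages were higher in the same libraries, and the part of macrophages in the Hmox1 level was not tested.

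Nqo1 and Gpx2 were low and variable. Nqo1 (chromosome 8, 107388225 to 107403206), a quinone reductase often used as the standard readout of NRF2 activity, had 4.95, 7.17 and 28.7 CPM in the lowest, median and highest bleomycin vehicle mouse and 6.54, 8.59 and 15.0 CPM in control mice. Its log2 fold change was -0.04 ± 0.21 with a 95% interval from -0.47 to 0.39. Gpx2, a glutathione peroxidase of epithelial cells, had 9.40, 16.8 and 50.5 CPM in bleomycin vehicle mice and 12.6, 23.2 and 28.3 CPM in control mice, with a log2 fold change of -0.16 ± 0.21 (adjusted p = 0.516). Gpx2 (chromosome 12, 76792333 to 76795554) lies within the span of Fntb on the other strand. The lowest Nqo1 level of any library, 4.95 CPM, rested on 83 counts and the lowest Gpx2 level, 9.40 CPM, on 158.

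Per kilobase of exon, the order of levels in control lungs was Prdx1 at 71.7 ± 3.86 CPM per kb (SD, n = 10), Gclc at 49.8 ± 3.92 and Nfe2l2 at 44.9 ± 2.97. Hmox1 followed at 19.1 ± 1.61 and Txnrd1 at 17.6 ± 1.69, with overlapping intervals of mean ± SD. Keap1 at 12.5 ± 0.57 and Srxn1 at 11.9 ± 1.01 overlapped likewise. Gclm, Gpx2 and Nqo1 came last at 7.11 ± 0.73, 6.98 ± 1.53 and 5.88 ± 1.45 CPM per kb, again with overlapping intervals of mean ± SD. All values come from the same 10 mice, and genes were not compared within mice. The exon length used for Gpx2, 3222 bases, equals its whole gene span, so its level per kb may be too low. Its place in the order depends on that length. In bleomycin vehicle lungs Gclc at 93.5 ± 12.6 CPM per kb stood next to Prdx1 at 102.5 ± 8.95, and Hmox1 at 49.1 ± 12.6 came after Nfe2l2 at 60.1 ± 5.67. In nintedanib lungs Gclc had 104 ± 15.2 and Prdx1 100.7 ± 12.7 CPM per kb.

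The second question was whether nintedanib changed these levels in bleomycin lungs. None of the 10 members was called between nintedanib and bleomycin vehicle mice, 0 higher and 0 lower by edgeR, and 0 by DESeq2, where edgeR called 7.31% of all tested genes, 3.21% as higher and 4.1% as lower. At an unadjusted p under 0.05 there was 1, Gclc. Intervals were narrow for Nfe2l2, Keap1, Txnrd1 and Prdx1, whose 95% limits on the log2 scale reached at most 0.14 in either direction. For Nqo1, Gpx2 and Hmox1 they reached 0.39, 0.58 and 0.85, so that changes up to that size were not resolved. No member, and 0% of all tested genes, was separated between the groups without overlap. The median log2 fold change was 0.05 over the members and -0.0022 over all tested genes.

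Gclc had 318, 389 and 524 CPM in the lowest, median and highest nintedanib mouse, against 275, 352 and 452 CPM in bleomycin vehicle mice, and 12 of 17 nintedanib mice lay above the bleomycin vehicle median. Its log2 fold change was 0.16 ± 0.064 (95% interval 0.03 to 0.29, unadjusted p = 0.0165, adjusted p = 0.112). Nfe2l2 had 202, 234 and 288 CPM in nintedanib mice and 200, 226 and 268 CPM in bleomycin vehicle mice. Keap1 had 45.6, 60.01 and 66.7 CPM in nintedanib mice and 45.0, 58.7 and 64.5 CPM in bleomycin vehicle mice. The ranges of both groups overlapped for each of these genes. Srxn1 averaged 52.2 ± 7.87 CPM (SD, n = 17) in nintedanib mice and 50.6 ± 6.52 CPM (n = 16) in bleomycin vehicle mice, and Txnrd1 averaged 177 ± 19.6 CPM in nintedanib mice and 176.5 ± 15.9 CPM in bleomycin vehicle mice. Prdx1 averaged 307 ± 38.7 CPM in nintedanib mice and 312 ± 27.2 CPM in bleomycin vehicle mice, Gclm 47.6 ± 6.98 CPM and 45.9 ± 9.72 CPM, Nqo1 8.78 ± 3.52 CPM and 8.89 ± 5.70 CPM and Gpx2 23.2 ± 8.80 CPM and 20.1 ± 10.1 CPM, in nintedanib and in bleomycin vehicle mice. Markers of other cells did differ between the 2 groups. Under nintedanib 5 of 8 airway secretory, 5 of 6 red blood cell, 5 of 5 tested adipocyte and 3 of 5 neutrophil markers rose. When the Adipoq libraries were left out, leaving 12 and 16 mice, 0 of 8 airway secretory, 1 of 6 red blood cell, 0 of 1 tested adipocyte and 3 of 5 neutrophil markers did. Without mouse 5 alone, 3 of 6 red blood cell markers rose. The part of these cells in the member values was not tested.

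Hmox1 turned on 1 mouse. Nintedanib mice had 42.04 CPM in the lowest, 73.5 CPM in the median and 706 CPM in the highest, against 51.5, 86.3 and 138 CPM in bleomycin vehicle mice. The highest, nintedanib mouse 5, was far above the next at 105 CPM, and 14 of 17 nintedanib mice lay below the bleomycin vehicle median. With all mice the log2 fold change was 0.31 ± 0.27 (adjusted p = 0.487). Without mouse 5, an alternative chosen after seeing the data, it was -0.31 ± 0.11 (adjusted p = 0.0784, edgeR). DESeq2 was given all mice at its default settings, which replace outlying counts in large groups, and gave -0.31 ± 0.11 (adjusted p = 0.0522). Whether it replaced the Hmox1 count of mouse 5 was not checked. Leaving out the Adipoq libraries, mouse 5 among them, gave -0.25 ± 0.12 (adjusted p = 0.21). In the edgeR fits the direction thus depended on mouse 5, and Hmox1 was not called in any of these fits.

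Mouse 5 stood highest of the 17 nintedanib mice in 5 members, with 524 CPM of Gclc, 222.5 CPM of Txnrd1, 69.5 CPM of Gclm and 438 CPM of Prdx1 beside its Hmox1. Its Nqo1 at 7.18 CPM and Gpx2 at 21.2 CPM ranked 12 and 9 in the group. The same library was also highest in the ferritin light chain Ftl1 (567 CPM, next 369), in ferroportin Slc40a1 (56.8 CPM, next 26.1), in the cystine transporter Slc7a11 (21.4 CPM, next 14.3) and in glutathione reductase Gsr (184 CPM, next 125). Marco, a scavenger receptor of alveolar macrophages, was at 202 CPM there with the next mouse at 37.3 CPM, and the haemoglobin gene Hba-a1 at 1112 CPM with the next at 985 CPM. These companions were picked after the values were seen, and what set this library apart was not tested.

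**Figure D3:**
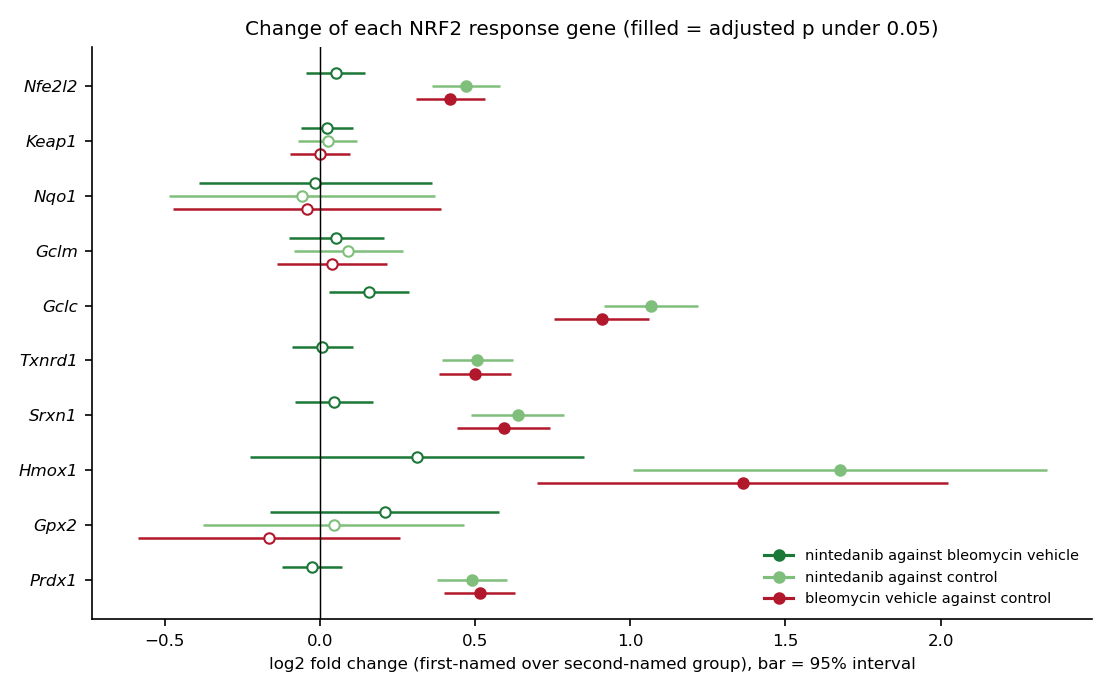
Log2 fold change of the 10 genes with 95% intervals for nintedanib against bleomycin vehicle, nintedanib against control and bleomycin vehicle against control, filled where the adjusted p was under 0.05. No symbol is filled for nintedanib against bleomycin vehicle, and Nfe2l2, Gclc, Txnrd1, Srxn1, Hmox1 and Prdx1 are filled in both comparisons with control.

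Set against control mice, nintedanib mice showed 6 of 10 members higher and 0 lower, where 28.1% of all tested genes were called higher, 25.1% lower and 53.2% in either direction. This comparison shares its control mice with the first one, so the values stand side by side and are not a second line of evidence. Log2 fold changes were 0.47 ± 0.055 for Nfe2l2, 1.07 ± 0.076 for Gclc, 0.51 ± 0.057 for Txnrd1, 0.64 ± 0.074 for Srxn1 and 0.49 ± 0.056 for Prdx1, against 0.42, 0.91, 0.50, 0.59 and 0.51 in bleomycin vehicle mice. Nintedanib and control libraries did not overlap for 5 of 10 members, against 4.31% of all tested genes (3.07% in the lower direction), and for Txnrd1 16 of 17 nintedanib mice lay above the highest control mouse. Hmox1 had a log2 fold change of 1.68 ± 0.33 with mouse 5 and 1.05 ± 0.14 without it (adjusted p = 4.4e-05 and 2.4e-08). Keap1 (0.02), Nqo1 (-0.06), Gclm (0.09) and Gpx2 (0.04) were not called.

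Mouse to mouse, the members were compared in pairs. Of 135 correlations of log2 CPM, 45 pairs in each of 3 groups, 97 were positive, 36 of 45 in nintedanib mice, 31 of 45 in bleomycin vehicle mice and 30 of 45 in control mice. At these group sizes 8 passed an adjusted p under 0.05 for r by permutation, 5 of them in nintedanib mice, 2 in bleomycin vehicle mice and 1 in control mice, and no pair passed in both bleomycin groups. The median r was 0.40 in nintedanib mice, 0.08 in bleomycin vehicle mice and 0.25 in control mice. These medians and counts of positive values cover all mice, and single values could turn on few of them. In nintedanib mice Gclm with Prdx1 went from r = 0.60 to -0.07 without the 2 mice farthest from the median of Gclm. Srxn1 with Prdx1 went from 0.65 to -0.09 in the same way, and Nfe2l2 with Keap1 rose from 0.33 to 0.58. These examples were picked after their values were seen. Since no pair passed in both bleomycin groups, the pairs below are those that passed in 1 group, named after their values were seen. Nfe2l2 with Gclc in nintedanib mice was the only one of the 135 to pass for both r and rho. In nintedanib mice it had r = 0.80 (permutation p = 0.00019, adjusted p = 0.00945) and rho = 0.85 (permutation p = 5e-05, adjusted p = 0.00675), with r = 0.78 without the 2 mice farthest from the median of Nfe2l2. In bleomycin vehicle mice it had r = 0.62 (permutation p = 0.0111, adjusted p = 0.0995), rho = 0.61 (permutation p = 0.0151, adjusted p = 0.179) and r = 0.47 without the 2 farthest mice.

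The other 7 passing pairs moved by different amounts without the 2 mice farthest from the median of the first gene. In nintedanib mice Txnrd1 with Srxn1 had r = 0.87 (permutation p = 0.00012, adjusted p = 0.00945) and rho = 0.67 (permutation p = 0.00403, adjusted p = 0.0907), and r was 0.61 without the 2 farthest mice. Gclc with Srxn1 had r = 0.77 (permutation p = 0.00039, adjusted p = 0.0132) and rho = 0.65 (permutation p = 0.00589, adjusted p = 0.114) there, and r was 0.52 without them. Hmox1 with Prdx1 had r = 0.87 in nintedanib mice (permutation p = 0.0012, adjusted p = 0.027) and rho = 0.59 (permutation p = 0.014, adjusted p = 0.18), and r was 0.37 without the 2 farthest mice, of which mouse 5 is one. Gclc with Txnrd1 had r = 0.70 (permutation p = 0.0018, adjusted p = 0.0355) and rho = 0.49 (permutation p = 0.049, adjusted p = 0.28) there, and r was 0.35 without the 2 farthest. The 4 pairs all fell in r when their 2 farthest mice were left out. In bleomycin vehicle mice Nqo1 with Gpx2 had r = 0.78 (permutation p = 0.00078, adjusted p = 0.0211), rho = 0.61 (permutation p = 0.0148, adjusted p = 0.179) and r = 0.48 without the 2 farthest. There Hmox1 ran against Gpx2, with r = -0.70 (permutation p = 0.0025, adjusted p = 0.042), rho = -0.59 (permutation p = 0.019, adjusted p = 0.18) and r = -0.60 without the 2 farthest. In control mice Nqo1 with Txnrd1 had r = 0.85 (permutation p = 0.00021, adjusted p = 0.00945), rho = 0.87 (permutation p = 0.00197, adjusted p = 0.0826) and r = 0.80 without the 2 farthest, a small change. One more pair, Txnrd1 with Gpx2 in control mice, passed for rho alone, at 0.92 (permutation p = 0.00043, adjusted p = 0.0290), with r = 0.78 (permutation p = 0.00598, adjusted p = 0.0807). Without the Adipoq libraries 0 pairs passed, in the bleomycin groups only, since the 2 control mice left were too few to correlate. Without the 3 libraries high in Cyp1a1 3 did, and within the largest number series 2 did.

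In each group the mouse with the most Nqo1 was also the mouse with the most Cyp1a1, a cytochrome P450 that is the classical target of the aryl hydrocarbon receptor. Nintedanib mouse 4 had 20.97 CPM of Nqo1 and 38.1 CPM of Cyp1a1, where the next highest values in its group were 12.1 and 8.51 CPM. Bleomycin vehicle mouse 10 had 28.7 CPM of Nqo1 and 109 CPM of Cyp1a1, where the next highest were 11.99 and 7.399 CPM. Control mouse 2 had 15.0 CPM of Nqo1 and 83.4 CPM of Cyp1a1, where the next highest were 9.61 and 10.99 CPM. All 3 libraries belong to the largest number series of library names. Without them, a choice made after seeing the data, the log2 fold change of Nqo1 was -0.17 ± 0.13 in bleomycin vehicle against control mice and 0.08 ± 0.11 in nintedanib against bleomycin vehicle mice, neither called.

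The 5 tested genes whose pattern was most like that of Nqo1 over the 43 libraries, by Pearson r of log2 CPM centred on each group mean, were Gsta2 (0.84), Ces1g (0.83), Aox1 (0.82), Cyp1a1 (0.80) and Ces1f (0.79). They encode a glutathione transferase, carboxylesterases, an aldehyde oxidase and the P450. Without the 3 Cyp1a1-high mice and mouse 5 the same values were 0.70, 0.58, 0.67, 0.45 and 0.62. These values describe the libraries, which share sequencing depth and cell makeup, and carry no test. Beside them, the r of Cyp1a1 with the other 9 members ran from -0.33 for Hmox1 to 0.62 for Gpx2. The same bleomycin vehicle mouse 10 was highest of its group in Nqo1, Gclm (75.3 CPM), Txnrd1 (222 CPM), Srxn1 (65.8 CPM) and Gpx2 (50.5 CPM) and lowest in Hmox1 (51.5 CPM). It was also highest in the airway secretory gene Scgb3a2, at 846 CPM with the next mouse at 464 CPM, and lowest in the alveolar macrophage gene Marco, at 3.02 CPM with the next at 4.001 CPM. Bpifa1, another gene of the airway secretory list, was at 4.45 CPM there and ranked 6 of 16. These genes were picked after the values were seen. The part of airway cells and macrophages in the member values of this mouse was not tested.

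**Figure D4:**
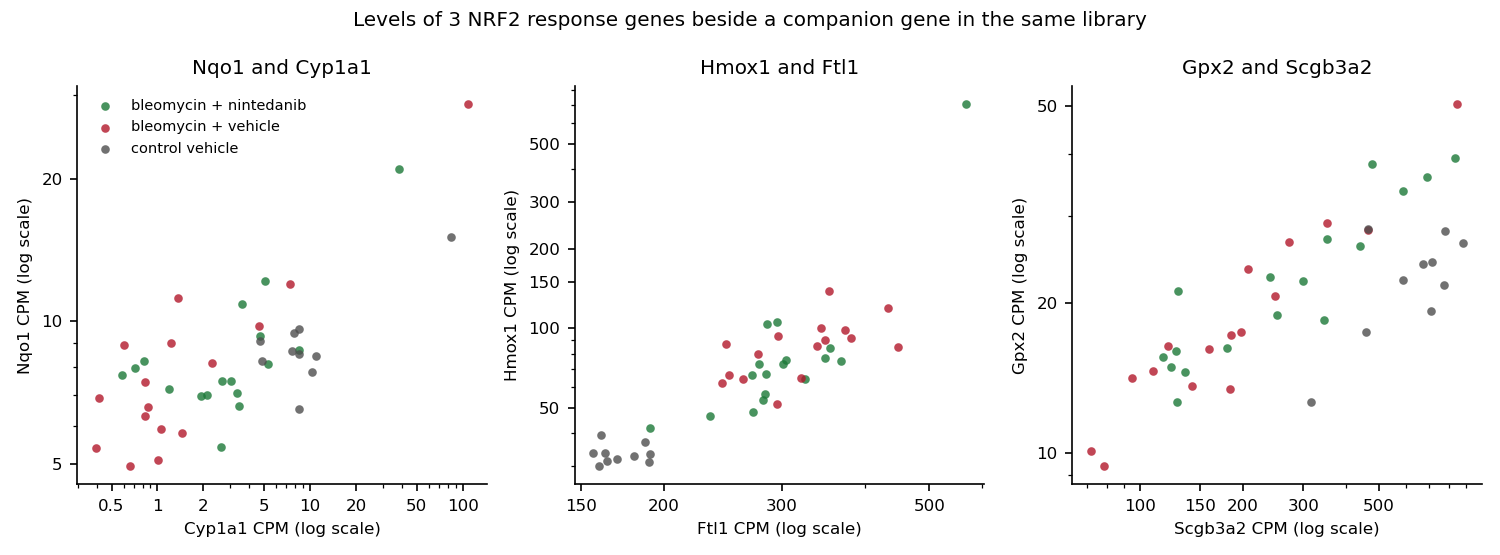
Levels in CPM on log axes, 1 dot per library, of Nqo1 against Cyp1a1, Hmox1 against Ftl1 and Gpx2 against Scgb3a2 in bleomycin nintedanib, bleomycin vehicle and control vehicle mice. In the first panel 1 dot of each group stands apart at 38.1, 109 and 83.4 CPM of Cyp1a1, and in the second 1 nintedanib dot stands apart at 567 CPM of Ftl1.

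The likeness lists of the other members named other partners. Nfe2l2 was nearest to Snap29 (r = 0.69), Pigg (0.69), Gclc (0.68), Ogfod1 (0.67) and Zfand2a (0.67), and without the 4 libraries that stand apart the values were 0.69, 0.68, 0.69, 0.73 and 0.66. Within control mice alone the values were -0.37, 0.35, 0.36, 0.43 and 0.19. Srxn1 was nearest to the haem transporter Slc48a1 (0.78), Syngr1 (0.77), the autophagy receptor and KEAP1 binder Sqstm1 (0.74), Txnrd1 (0.73) and Creg1 (0.72), which were 0.61, 0.81, 0.74, 0.45 and 0.69 without the 4 libraries. Within control mice alone they were 0.59, 0.64, 0.48, 0.66 and 0.26. Hmox1 was nearest to Ftl1 (0.73), Prdx1 (0.71), the tubulin gene Tuba1c (0.70), Gsr (0.70) and Esd (0.69), which were 0.59, 0.43, 0.65, 0.32 and 0.52 without the 4 libraries. Within control mice alone they were -0.0087, 0.14, 0.14, -0.031 and 0.36. Gpx2, looked up after its values were seen, was nearest to the airway secretory gene Scgb3a2 (0.91, 0.93 without the 4 libraries and 0.70 within control mice alone).

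Likeness to summed cell type markers is given in the same way, as a description. Over the 43 group-centred libraries Gpx2 had r = 0.83 with the summed ciliated cell markers, 0.73 with the airway secretory markers and -0.71 with the profibrotic macrophage markers. Nqo1 had r = 0.61 with the airway secretory markers, and r = 0.11 within control mice alone. Hmox1 had r = 0.53 and Prdx1 had r = 0.55 with the profibrotic macrophage markers. Nfe2l2 had r = 0.58 and Gclc had r = 0.48 with those of transitional alveolar epithelium. Within control mice alone these values, in this order, were 0.63, 0.47, 0.21 and 0.33. Other lists were nearly as close over all 43 libraries. Hmox1 had r = 0.52 with the alveolar macrophage and 0.46 with the transitional epithelium markers. These were 0.25 and 0.46 without the 4 libraries that stand apart, and 0.32 and -0.18 within control mice alone. The r of Hmox1 with the profibrotic macrophage markers was 0.64 without the 4 libraries. Prdx1 had r = 0.49 with the transitional epithelium markers, and Nfe2l2 had r = 0.51 with the profibrotic macrophage markers. Those values were 0.45 and 0.49 without the 4 libraries, and -0.08 and -0.45 within control mice alone. The airway lists fell in bleomycin vehicle mice, all 8 secretory and all 5 ciliated markers, and without the Adipoq libraries 1 secretory and 0 ciliated markers did. The part of airway cells in the levels of Gpx2 and Nqo1 was not tested.

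The wider oxidant defence genes were followed as lists around the 10 members. They are read against the 29.5% of all tested genes called higher and 28.3% called lower in bleomycin vehicle against control mice. Over the 8 lists 36 of 98 tested genes were higher and 28 lower there, 36.7% and 28.6%. Among 15 partners and regulators of NRF2, 1 rose and 6 fell in bleomycin vehicle mice against control mice, with a list median of -0.06 on the log2 scale. The 4 with the largest change were Bach2 (-0.68), a repressor of the BACH family, Nfe2l3 (-0.48), a relative of NRF2, Dpp3 (0.45), which binds KEAP1, and Btrc (-0.27), the receptor of another ubiquitin ligase for NRF2. Bach1, the repressor of Hmox1, had a log2 fold change of -0.04 ± 0.06 and Sqstm1 of -0.04 ± 0.06, and neither was called. This pair was chosen after its values were seen.

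Among 24 further genes of glutathione synthesis and use, 7 rose and 9 fell, and the 7 were near the share called higher over all genes. Slc7a11, the cystine transporter, rose by 1.58 ± 0.27 on the log2 scale, with 4.001, 6.02 and 19.3 CPM in the lowest, median and highest bleomycin vehicle mouse and 0.949, 2.05 and 4.19 CPM in control mice. Glrx, a glutaredoxin, rose by 1.13 ± 0.10. The glutathione transferases Gstm1 (-1.01 ± 0.19) and Gsta3 (-0.97 ± 0.21) fell. They belong to families of close copies, so that reads may have been divided between members, and the list median was -0.12.

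Thioredoxins and peroxiredoxins showed 7 genes higher and 4 lower of 14, led by the sestrin Sesn2 (1.09), the methionine sulfoxide reductase Msrb1 (0.83), the endoplasmic reticulum peroxiredoxin Prdx4 (0.60) and the thioredoxin inhibitor Txnip (-0.55). Haem and iron genes rose in 7 of 11 and fell in 0, with Ftl1 at 0.92 ± 0.11, biliverdin reductase Blvra at 0.80 ± 0.09, the ferritin heavy chain Fth1 at 0.69 ± 0.10 and Slc40a1 at 0.58 ± 0.24. The ferritin genes have many near-identical processed copies, so their counts are uncertain. NADPH suppliers rose in 5 of 7 and fell in 0, with Pgd (0.70), Idh1 (0.52), G6pdx (0.49) and Me1 (0.47) among them. The list medians were 0.13, 0.46 and 0.47 for thioredoxins, haem and NADPH.

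Of 13 tested detoxification and export targets, 2 rose and 4 fell, with Aldh3a1 (-1.15), Ptgr1 (0.53), Abcc4 (0.49) and Cbr1 (-0.29) foremost. Of 4 superoxide and catalase genes 0 rose and 3 fell, Sod1 by 0.54, Cat by 0.48 and Sod3 by 0.23 on the log2 scale. Of 10 oxidant-producing enzymes 7 rose and 2 fell, with the inducible nitric oxide synthase Nos2 at 2.01 ± 0.23 and the phagocyte oxidase subunits Cybb at 1.42 ± 0.16 and Ncf1 at 1.19 ± 0.11. Duox1 had a log2 fold change of 4.08 ± 0.63 with a median of 0.71 CPM in bleomycin vehicle mice and 0 CPM in control mice.

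Without the Adipoq libraries, which left 2 control mice, the counts higher and lower were 1 and 3 for partners, 3 and 4 for glutathione, 6 and 1 for thioredoxins, 4 and 0 for haem and iron, 6 and 0 for NADPH, 2 and 0 for detoxification, 0 and 1 for superoxide and catalase and 6 and 2 for oxidant enzymes. The lower calls among the detoxification targets, Aldh3a1 included, were thus not made with 2 control mice.

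Between nintedanib and bleomycin vehicle mice 5 of the 98 tested genes of these 8 lists were called, 3 as higher and 2 as lower. That is 5.1% of them, below the 7.31% of all tested genes called in this comparison, so the count is not a result about the lists. Nos2 fell, with 4.22, 6.03 and 16.3 CPM in the lowest, median and highest nintedanib mouse and 5.41, 16.3 and 22.2 CPM in bleomycin vehicle mice, and 16 of 17 nintedanib mice lay below the bleomycin vehicle median (log2 fold change -1.04 ± 0.18, adjusted p = 0.00047). Blvra, which acts just after Hmox1 in haem breakdown, fell by 0.24 ± 0.072 (adjusted p = 0.0310), with means of 29.4 ± 4.28 CPM in nintedanib mice and 34.9 ± 5.74 CPM in bleomycin vehicle mice. The plasma glutathione peroxidase Gpx3 rose by 0.30 ± 0.091 (adjusted p = 0.0335), Gstm2 by 0.30 ± 0.089 (adjusted p = 0.0315) and Cul3, the scaffold of the KEAP1 ubiquitin ligase, by 0.11 ± 0.033 (adjusted p = 0.0377). Without the Adipoq libraries 0 partners, 0 glutathione genes and 0 haem genes were called, while 1 thioredoxin gene and 1 oxidant enzyme fell. Without mouse 5 the thioredoxin list had 3 genes lower, the oxidant enzymes 2 lower and the glutathione list 2 higher and 1 lower. Without the 3 libraries high in Cyp1a1 the glutathione list had 4 higher, the detoxification targets 2 higher, the thioredoxins 1 higher, the superoxide and catalase genes 1 higher, the partners 1 higher and 1 lower and the oxidant enzymes 1 higher and 3 lower.

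With all libraries no gene was called among the thioredoxins and peroxiredoxins, the NADPH suppliers, the detoxification targets or the superoxide and catalase genes. The smallest p-values of those lists belonged to Prdx2 (-0.14, adjusted p = 0.0555) and Prdx4 (-0.23, adjusted p = 0.0873), to Taldo1 (-0.10, adjusted p = 0.210) and Me1 (0.11, adjusted p = 0.351), to Osgin1 (0.24, adjusted p = 0.0633) and Abcc1 (0.11, adjusted p = 0.123), and to Sod3 (0.17, adjusted p = 0.0999) and Sod1 (0.11, adjusted p = 0.242).

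Nintedanib mice against control mice are read against the 28.1% of all tested genes called higher and 25.1% called lower, and over the 8 lists 36 of 98 genes were higher and 17 lower, 36.7% and 17.3%. They gave counts higher and lower of 2 and 5 for partners, 6 and 4 for glutathione, 7 and 3 for thioredoxins, 8 and 0 for haem and iron, 5 and 0 for NADPH, 2 and 1 for detoxification, 0 and 2 for superoxide and catalase and 6 and 2 for oxidant enzymes. The glutathione list, with 6 higher of 24, was near the share over all genes. With the Adipoq libraries left out the counts were 1 and 2 for partners, 2 and 1 for glutathione, 4 and 1 for thioredoxins, 4 and 0 for haem and iron, 5 and 0 for NADPH, 2 and 0 for detoxification, 0 and 1 for superoxide and catalase and 4 and 2 for oxidant enzymes. Bach2 (-0.66), Nfe2l3 (-0.40) and Dpp3 (0.34) led the partners with Maff, and Slc7a11 (1.66), Glrx (1.11), Gstm1 (-0.65) and Gsta3 (-0.57) led the glutathione genes. Sesn2 (1.06), Msrb1 (0.59), Txnrd3 (-0.47) and Prdx4 (0.37) led the thioredoxin list, and Ftl1 (0.84), Fth1 (0.69), the haem-binding Hpx (0.64) and Slc40a1 (0.61) the haem and iron list. Pgd (0.69), Me1 (0.59), G6pdx (0.50) and Idh1 (0.47) led NADPH supply. Of the detoxification genes Ptgr1 (0.47) and Abcc4 (0.46) rose and Cbr1 (-0.24) fell, as did Sod1 (-0.43) and Cat (-0.33). Among the oxidant enzymes Duox1 (3.83), Cybb (1.202), Duox2 (-1.01) and Nos2 (0.97) had the largest changes. The small MAF gene Maff, a partner of NRF2, rose by 0.42 ± 0.11 in this comparison and had a log2 fold change of 0.20 ± 0.12 in bleomycin vehicle mice against control mice, where it was not called.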

How the data were processed

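RNA of the inferior lung lobe was sequenced as directional polyA libraries on an Illumina sequencer, per the labels' protocols. The deposited values are raw read counts per gene, made by the authors with STAR 2.7.0f, R 3.6.0 and genome build GRCm38, per the submitters' processing notes. The counting tool, strand setting and annotation release are, in the sources used here, not given. All 21938 genes are protein-coding by GENCODE M21, and 21938 identifiers matched a symbol. Groups came from the treatment label. Mouse numbers within a group follow accession order. Library names fall into 3 number series whose meaning is not stated.

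Counts were tested with edgeR 4.0.16 (R 4.3.3) with TMM scaling and a robust quasi-likelihood F test, two-sided, over 43 libraries with 1 coefficient per group (40 residual degrees of freedom). The 14836 genes kept by filterByExpr (minimum count 10, total 15) hold 99.96% of counts, and p-values were Benjamini-Hochberg adjusted over all of them at a threshold of 0.05. Depth of 13138281 to 19111457 counts limits precision for the low members, and the median biological coefficient of variation was 13.6%. Log2 CPM used a prior count of 2, and CPM per kb the exon union of GENCODE M21. Correlations and the Gclc to Gclm ratio used two-sided permutation tests with 100000 resamples, and the ratio used exact enumeration for a reference group under 10. Alternative settings of the correlations used 10000 resamples. No library pair within a group was a duplicate, since over 301 pairs chi-square divided by its degrees of freedom was at least 5.30. The fits were tested on simulated data.

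The members and lists were chosen with earlier results of these data known. The text names the 10 members, up to 4 called genes with the largest change per list (where none was called, at most 2 by p), pairs passing in both bleomycin groups (none did, so pairs passing in 1 group were named after their values were seen), and the 5 genes most like Nfe2l2, Nqo1, Srxn1 and Hmox1. Alternatives were RLE scaling, library totals, no low-count filter, DESeq2 1.42.0, only the 2 groups compared, number series A alone or as a term, a prior count of 0.5, and leaving out libraries with at least 1 CPM of Adipoq. Leaving out nintedanib mouse 5 or the mouse highest in Cyp1a1 of each group was chosen after seeing the data. Other software was SciPy 1.17.1, pandas 2.3.3 and NumPy 2.4.6 under Python 3.11.15, with limma 3.58.1 in R.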

Additional observations from a re-analysis of the deposited data

Results flagged for a closer look

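The highest Nqo1 value of the 10 control libraries, 15.02 CPM in control mouse 2, stood apart from the others. Its gap to the next library was 0.638 of the range of the group, above the 95% critical value of Dixon's test for 10 samples. Of 20 such tests, 1 for the high and 1 for the low end of each of the 10 members, this was the 1 flag, and chance flags about 1 in 20 groups. The same library had the most Cyp1a1 of the control mice, 83.4 CPM. The cause was not tested.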

How the results depend on the processing

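The count of called members stayed at 6 in both comparisons with control mice and at 0 between nintedanib and bleomycin vehicle mice under every alternative run. All 114 alternative values of called members kept direction and call. Of 290 alternative member values 25 changed sign, none of them of a member called in the same comparison, and their cause was not tested. For bleomycin vehicle against control, Keap1 (log2) became -0.0080 with RLE, -0.046 with library totals, -0.0029 with no filter, -0.0077 with DESeq2, -0.015 in series A, -0.070 without the Adipoq libraries and -0.0091 with only the 2 groups. Gclm became -0.0035 with library totals and -0.025 without the 3 libraries high in Cyp1a1, and Nqo1 0.014 in series A. For nintedanib against bleomycin vehicle without the Adipoq libraries, Nqo1 became 0.059, Gclm -0.043, Hmox1 -0.25 and Gpx2 -0.017. Without nintedanib mouse 5, Nqo1 became 0.0014, Txnrd1 -0.016 and Hmox1 -0.31. Hmox1 was also -0.31 with DESeq2, Txnrd1 -0.017 with library totals and Nqo1 0.084 without the 3 libraries. For nintedanib against control, Keap1 became -0.044 with library totals, -0.019 without the Adipoq libraries and -0.0099 with only the 2 groups, and Gpx2 -0.014 and -0.039 under the first pair of settings.

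All genes called numbered 8585, 1084 and 7888 for bleomycin vehicle against control, nintedanib against bleomycin vehicle and nintedanib against control. Without the Adipoq libraries, with fewer samples, they numbered 3654, 525 and 3297, and with only the 2 groups 640 were called between nintedanib and bleomycin vehicle. Scaled by library totals, 3736 were higher and 4882 lower in bleomycin vehicle against control mice (4381 and 4204 with TMM), 369 and 813 in nintedanib against bleomycin vehicle mice (476 and 608) and 3250 and 4844 in nintedanib against control mice (4171 and 3717). Of the correlations, 8 passed at first, 3 with library totals, 2 in series A, 0 without the Adipoq libraries, 3 without the 3 libraries and 7 without nintedanib mouse 5. The count without the Adipoq libraries covers the bleomycin groups only. The Gclc to Gclm ratio of nintedanib over bleomycin vehicle mice passed the threshold without the Adipoq libraries (0.2154). Without mouse 5 the ratio differences were 0.1002 against bleomycin vehicle and 0.98 against control, and all genes called 1193 and 7627. No paired analysis was possible because the labels give no replicate numbers. Depth limits Nqo1 most, at 79 to 419 counts per library.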
